A study of Mus musculus with 4 samples.

Results

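Malat1, Neat1 and Kcnq1ot1 are long RNAs that code for no protein and stay in the nucleus, and their levels were followed through 4 Drop-seq libraries of vaginal epithelium. The 3 genes were chosen by name out of 25071 gene symbols in the count matrices, with their levels in the libraries, their relation to molecules per cell and mitochondrial share, and their levels in marker-defined layers already known. Those values are therefore given as a description, with no test, and the choice involved no threshold. All 3 symbols were present in each library.

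Drop-seq captures single cells in droplets, primes polyadenylated RNA with oligo-dT and tags each captured molecule with a unique molecular identifier (UMI). The 2 WT libraries came from C57BL/6 mice with intact ovaries and the 2 OVX libraries from C57BL/6 mice whose ovaries had been removed by surgery, each library being described as 5 mice pooled. Age, stage of the oestrous cycle and time since surgery were not given in the sources used here. Libraries of a group are described as duplicates, so p-values measure the spread between libraries, which may be technical, and pooling hides the spread between mice.

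Barcodes with 200 or more genes and no more than 20% of UMIs from mitochondrial genes were kept as cells, 8446 of 10000, with 1573 to 2979 per library. Libraries held 991112 to 5845107 UMIs. The median cell held 1597 and 799 UMIs in WT against 435 and 738 in OVX, and OVX library 1 lost 1403 of its 3000 barcodes for too few genes. The median mitochondrial share was 4.00% and 3.85% in WT against 8.97% and 9.69% in OVX. Pairs of libraries shared 2 to 15 barcode sequences. Doublets were not removed. Over all kept cells the 15 basal markers, keratins Krt5 and Krt14 among them, summed to 45920 and 27240 CPM in WT and to 8943 and 9621 in OVX, with 15 of 15 detected in each library. Levels here and below are in CPM, the UMIs of a gene per 1000000 UMIs of the library or cell set.

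Malat1 is one of the most abundant RNAs of the nucleus and gathers in nuclear speckles, bodies rich in splicing factors. Neat1 is made next to it and has a short polyadenylated form and a long form; the long one is the scaffold of paraspeckles, bodies that hold the proteins Nono and Sfpq among others. Kcnq1ot1 is transcribed from the paternal allele only, antisense to Kcnq1, and silences neighbouring imprinted genes in cis. Removal of the ovaries takes away the main source of oestrogen, under which the vaginal epithelium grows thick and stratified.

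On the mouse build GRCm38, also called mm10, GENCODE M21 places Malat1 (ENSMUSG00000092341.3, a lincRNA) on the minus strand of chromosome 19 from 5795690 to 5802672 as 1 exon of 6983 bases. Neat1 (ENSMUSG00000092274.3) lies on the same strand from 5824708 to 5845478, with 22035 bases between the genes. Its long form is annotated as 1 exon of 20771 bases and its short form as 2 exons with 3004 bases. Kcnq1ot1 (ENSMUSG00000101609.2) is 1 exon of 93092 bases on the minus strand of chromosome 7 from 143203458 to 143296549, inside Kcnq1, which runs on the plus strand from 143106362 to 143427042. Neither the annotation used by the authors for counting nor its strand rule was given in the sources used here, and reads of Kcnq1ot1 and of Kcnq1 introns cannot be told apart.

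The sequences that an oligo-dT primer can meet are shown because the assay starts there. Each is written 5′ to 3′ on the transcript strand, with the polyadenylation signal AATAAA or a run of at least 10 A in capitals. The first is the only such run of Malat1, 12 A at bases 6674 to 6685 of the transcript, shown with the bases around it as chr19:5795958-5796029. As background, the mature 3′ end of Malat1 is made by RNase P, which cuts between this A-rich stretch and the tRNA-like piece that follows it.
Malat1 A run: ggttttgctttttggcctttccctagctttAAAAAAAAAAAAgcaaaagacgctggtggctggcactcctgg
The annotated Malat1 transcript goes on for 298 bases past the run to the end at chr19:5795690-5795749, which holds AATAAA.
Malat1 annotated end: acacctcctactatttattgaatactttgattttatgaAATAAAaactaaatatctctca
The short Neat1 form ends at chr19:5842307-5842366 with AATAAA, and the long form ends at chr19:5824708-5824767 with a stretch rich in A but without the signal, so it has no capitals.
Neat1 short form end: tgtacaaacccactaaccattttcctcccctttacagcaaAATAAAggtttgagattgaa
Neat1 long form end: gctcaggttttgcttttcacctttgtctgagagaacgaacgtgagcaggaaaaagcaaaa
Neither Neat1 form holds a run of 10 A. Kcnq1ot1 holds 10 such runs, of which the longest, 41 A at bases 69565 to 69605 of the transcript, lies 23487 bases before its annotated end. It is shown with the bases around it as chr7:143226915-143227015, and the last 60 bases as chr7:143203458-143203517.
Kcnq1ot1 longest A run: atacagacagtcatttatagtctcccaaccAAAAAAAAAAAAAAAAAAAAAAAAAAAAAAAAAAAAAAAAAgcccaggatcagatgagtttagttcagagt
Kcnq1ot1 annotated end: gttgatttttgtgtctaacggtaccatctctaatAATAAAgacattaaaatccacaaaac
Of 141767 annotated transcripts, 7.18% hold a run of at least 10 A, and of 141515 transcripts of at least 60 bases, 27.15% hold AATAAA in the last 60. The 7.18% covers transcripts of every length, so it is not a like background for Kcnq1ot1, with 93092 bases, or Malat1, with 6983. Which of these sites primed the counted molecules was not measured, and counts of Neat1 join its forms.

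Malat1 took a larger part of the RNA in both OVX libraries. It stood at 3357 and 4650 CPM in WT libraries 1 and 2 and at 25020 and 18140 in OVX libraries 1 and 2. The groups did not overlap, and the means were 4004 ± 914 and 21580 ± 4865 (SD, n = 2 libraries), a 5.39-fold difference. In rank by UMIs it was gene 21 and gene 10 in the WT libraries and gene 2 in both OVX libraries, behind the mitochondrial ribosomal RNA mt-Rnr2. The median cell held 0.233% and 0.359% of its UMIs as Malat1 in WT against 2.26% and 1.60% in OVX. The count of Malat1 molecules was higher too, although OVX cells held fewer UMIs: 6.57 and 4.52 per cell in WT against 12.7 and 15.6 in OVX.

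Neat1 was also higher in both OVX libraries, with a wide spread. Its level was 164 and 121 CPM in WT and 265 and 598 in OVX, from 958, 233, 212 and 979 UMIs. The means were 142 ± 30.8 and 432 ± 235 (SD, n = 2), a 3.03-fold difference, and OVX library 2 held more than OVX library 1 by a margin far above the counting intervals of 231 to 304 and 561 to 637. Per cell, 0.322 and 0.117 Neat1 UMIs were counted in WT and 0.135 and 0.513 in OVX, so on that scale the groups overlapped.

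Kcnq1ot1 was rare, at 36.0 and 40.4 CPM in WT and 101.4 and 119 in OVX, from 78 to 210 UMIs per library, and per cell it overlapped between groups, at 0.0705 and 0.0393 against 0.0515 and 0.102. The means in CPM were 38.2 ± 3.10 and 110 ± 12.5 (SD, n = 2), a 2.89-fold difference without overlap. Exact 95% Poisson intervals, which cover counting error only, ran from 31.3 to 50.4 over the WT libraries and from 80.5 to 137 over the OVX libraries.

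**Figure D1:**
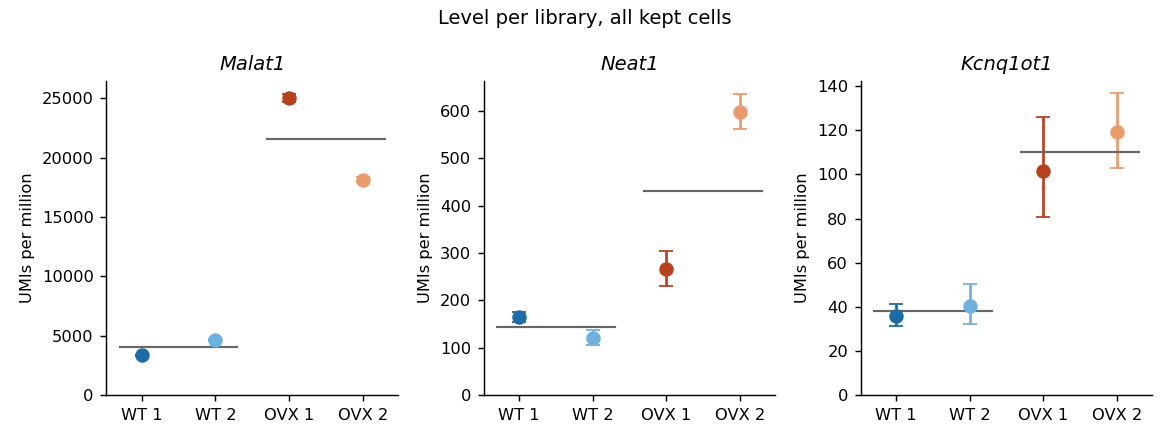
CPM (linear axis from 0) of each gene in the kept cells of the 4 libraries; bars are exact 95% Poisson intervals and grey lines the mean of 2 libraries. Each OVX library lies above each WT library for all 3 genes, and the 2 OVX libraries of Neat1 lie far apart, at 265 and 598.

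Both OVX libraries lay above both WT libraries for 29.1% of the 11495 genes tested between groups, and for 3 of 3 members, which were chosen on this contrast. An edgeR quasi-likelihood test on the library sums called 5.11% of those genes in either direction at an adjusted p under 0.05. By log2 fold change in that fit, 359 genes had a larger rise than Malat1, 788 than Neat1 and 871 than Kcnq1ot1. Scaling by total UMIs in place of TMM moved the median log2 fold change of all genes from -0.03 to 0.11. In such sums, a change in the kinds of cells and a change in RNA per cell cannot be told apart.

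Markers of other cells moved with the groups. Summed over the kept cells, the 15 myeloid markers stood at 145 and 147 CPM in WT and 971 and 609 in OVX. The 8 fibroblast markers stood at 5.32 and 33.7 against 290 and 240, with 3 of 8 at 0 in WT library 1. The 5 endothelial markers stood at 9.78 and 10.4 against 45.1 and 35.4, with 3, 3, 4 and 2 of 5 at 0. The 10 T or NK cell markers ran the other way, at 67.9 and 84.5 against 22.5 and 29.9, with 3 to 7 of 10 at 0. Smooth muscle, neutrophil and erythroid markers summed to at most 11.9 CPM in any library. In cells of the basal gate, defined below, the Malat1 difference was 5.03-fold, against 5.39-fold in all kept cells. That gate does not hold like cells in both groups, and the part of cell kinds in the difference was not tested.

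Cells were gated by panels of basal, suprabasal and luminal markers, each cell going to the panel most above its library's own mean. The basal gate held 711 to 2049 cells per library and the suprabasal gate 466 to 902. The luminal gate, which needs a UMI of the simple keratins Krt8 or Krt18, held 11 and 2 cells in WT against 109 and 181 in OVX. Krt8 stood at 604 and 514 CPM in the luminal-gate cells of OVX, which follows in part from the gate. The suprabasal gate was not the same cells in both groups: Krt10, a keratin of the layers above the basal one, stood at 4834 and 3857 CPM there in WT but at 148 and 90.7 in OVX, where the protease inhibitor Spink5 stood at 8084 and 16110. The basal gate was unlike too, with Krt14 at 16660 and 16710 CPM in WT but 3526 and 3112 in OVX. The luminal marker Fmo2 stood there at 5.72 and 4.185 against 594 and 582. Gates are set against each library's own mean, so a gate need not hold like cells in both groups. Between 430 and 1380 cells per library lay within 2-fold of the cut between the basal and suprabasal panels.

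Malat1 differed far more between groups than between layers. In the basal gate it stood at 3492 and 4939 CPM in WT and 24980 and 17430 in OVX. In the suprabasal gate it was 3024 and 4125 against 22270 and 16650, lower than in the basal gate of the same library in 4 of 4 libraries. The luminal gate of OVX held 30800 and 20980, above the basal and suprabasal levels of the same library, and the cells of no gate, found in OVX only, 26990 and 27280.

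Neat1 was also higher in the basal than in the suprabasal gate. Its basal-gate levels were 180, 129, 321 and 612 CPM in WT 1, WT 2, OVX 1 and OVX 2, and its suprabasal levels 132, 103, 216 and 590. Basal stood above suprabasal in 4 of 4 libraries, though with overlapping counting intervals in WT library 2 and both OVX libraries. The luminal gate of OVX held 201 and 578, below the basal level of the same library in both. Kcnq1ot1 had no common order: basal-gate levels were 33.8, 37.7, 97.6 and 144 and suprabasal levels 37.4, 44.1, 87.3 and 77.4, so that basal was higher in the OVX libraries and lower in the WT libraries, within overlapping counting intervals except in OVX library 2. In basal-gate cells both OVX libraries lay above both WT libraries for 3 of 3 members and for 25.5% of the 9827 genes tested there.

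**Figure D2:**
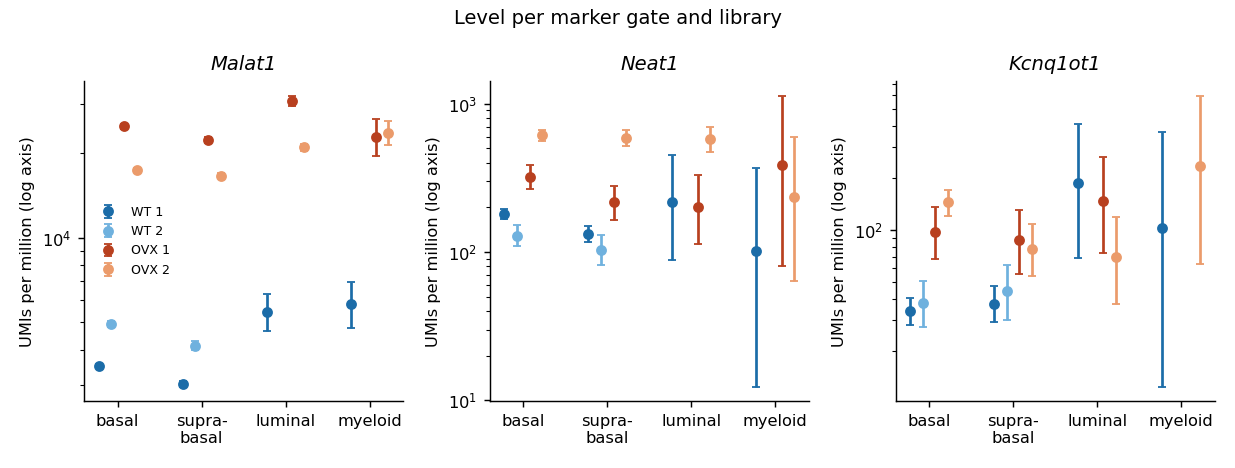
CPM (log axis) of each gene by marker gate, one point per library with its exact 95% Poisson interval; sums of under 10 cells or with 0 UMIs are left out. For Malat1 the OVX points lie above the WT points in every gate shown, from 16650 up in OVX against at most 5808 in WT.

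The Malat1 share was weakly related to depth per cell inside a library. Across cells of 1 library the Spearman correlation of the Malat1 share with UMIs per cell was -0.004, -0.006, -0.051 and -0.142 in the order WT 1, WT 2, OVX 1, OVX 2, as a description over cells that share a library. From the shallowest to the deepest of 4 equal groups of cells, Malat1 went from 3934 to 3127 and from 5040 to 4244 CPM in WT, and from 26170 to 23180 and from 24190 to 16550 in OVX. It was lower in the deepest group in 4 of 4 libraries. When each cell was thinned to 400 UMIs, which left out 43 WT and 693 OVX cells, 61.4% and 73.0% of WT cells and 99.5% and 98.3% of OVX cells held a Malat1 UMI. Unthinned, the shares were 91.6%, 88.5%, 99.1% and 99.2%. Thinned shares for Neat1 were 6.88% and 5.45% against 10.1% and 20.1%, and for Kcnq1ot1 1.28% and 1.80% against 2.92% and 4.56%. No cell kind in these libraries is known to lack these RNAs, so no background share from free RNA could be read.

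The mitochondrial share, often read as a sign of damaged cells, moved with the members. From the lowest to the highest of 4 equal groups of cells by mitochondrial share, Malat1 went from 2585 to 4783 and from 3487 to 6441 CPM in WT, and from 21600 to 28070 and from 15520 to 22840 in OVX. Its level was higher in the highest group in 4 of 4 libraries. Kcnq1ot1 went the same way, from 20.3 to 64.2, from 36.3 to 70.01, from 52.8 to 164 and from 94.8 to 157. Neat1 did so in WT, from 124 to 237 and from 89.99 to 170, while in OVX it went from 302 to 206 and from 623 to 561.

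At 5% to 10%, Malat1 stood at 4071 and 6147 CPM in WT and 24150 and 16820 in OVX, still a 4.01-fold difference of the means. Kcnq1ot1 stood at 56.0 and 67.5 in WT and 65.5 and 113 in OVX, which overlap, with a 1.45-fold difference. Neat1 stood at 198 and 171 against 298 and 664. At 2.5% to 5% Kcnq1ot1 stood at 30.1 and 29.7 against 38.2 and 34.9, without overlap, but with 2 UMIs in each OVX library. At 10% to 20% it stood at 132 and 35.4 against 162 and 133, a 1.76-fold difference without overlap, with 1 UMI in WT library 2. In that band the Malat1 difference was 2.30-fold, with 11120 and 9518 against 27340 and 20190, while Neat1 overlapped at 530 and 248 against 218 and 545; WT library 2 gave 7 Neat1 UMIs there.

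**Figure D3:**
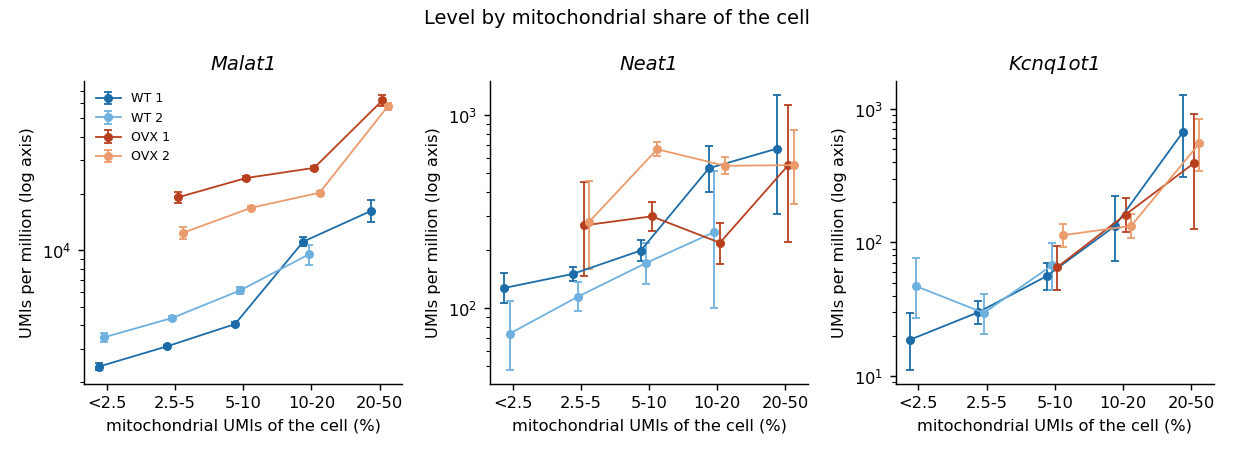
CPM (log axis) by the mitochondrial share of the cell, one line per library with exact 95% Poisson intervals; points from under 10 cells or under 3 UMIs are left out, and the last band holds barcodes left out of the kept cells. The Malat1 lines of OVX run above those of WT in every band where both groups have points, whereas the Kcnq1ot1 points of the groups overlap at 5% to 10%.

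Cells were also compared in a single window of 500 to 1300 UMIs and 5% to 10% mitochondrial UMIs, which 343 to 716 cells per library met. Malat1 stood there at 4255 and 6035 CPM in WT and 23800 and 16750 in OVX, a 3.94-fold difference. Neat1 stood at 264 and 145 against 326 and 638, a 2.36-fold difference without overlap. Kcnq1ot1 stood at 44.0 and 74.2 against 60.5 and 113, a 1.47-fold difference with overlap, from 15, 20, 15 and 65 UMIs. On the log2 scale the Kcnq1ot1 difference was 0.55 in the window against 1.53 in all kept cells, and the Malat1 difference 1.98 against 2.43. In basal-gate cells of the window Kcnq1ot1 stood at 59.6 and 39.2 against 67.5 and 152, a 2.22-fold difference without overlap, from 15, 7, 7 and 50 UMIs, so the overlap depended on which cells were taken. The window was chosen after the data were seen.

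The promoters of Malat1 and Kcnq1ot1 are shown from RefSeq on GRCm38.p6, 250 bases before to 50 after the start. Each CCAAT on either strand is in capitals. Neat1 was higher in OVX as well, but the promoter set used here had no entry for it, so its promoter is not shown. Kcnq1ot1 (chr7:143296498-143296797, minus strand) holds 3 CCAAT boxes and Malat1 (chr19:5802623-5802922, minus strand) none.
Kcnq1ot1 promoter: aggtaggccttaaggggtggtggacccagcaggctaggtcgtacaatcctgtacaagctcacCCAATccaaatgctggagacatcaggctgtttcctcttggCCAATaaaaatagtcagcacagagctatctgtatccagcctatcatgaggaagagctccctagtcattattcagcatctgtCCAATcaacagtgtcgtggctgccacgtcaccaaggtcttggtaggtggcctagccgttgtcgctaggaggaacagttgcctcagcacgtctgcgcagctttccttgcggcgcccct
Malat1 promoter: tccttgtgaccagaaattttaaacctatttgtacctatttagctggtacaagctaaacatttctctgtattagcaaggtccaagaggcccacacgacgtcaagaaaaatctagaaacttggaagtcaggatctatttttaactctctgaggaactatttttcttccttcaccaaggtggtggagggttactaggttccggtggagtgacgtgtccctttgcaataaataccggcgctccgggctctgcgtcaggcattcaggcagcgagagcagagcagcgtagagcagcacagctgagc
CCAAT is found in 37.41% of 32851 promoters of this length. The oestrogen receptor core motif GGTCA, counted on both strands, is found at 1 place in Malat1, at 0 in Kcnq1ot1, and in 40.48% of promoters. The full palindrome GGTCANNNTGACC, of which that motif is a part, is in neither and in 0.07% of promoters, and TATAAA is in neither and in 13.62%. These are letter matches in 1 window and were not tested as sites.

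Whether Neat1 and Kcnq1ot1 go with Malat1 from cell to cell was tested inside libraries, which the choice of genes did not use. Epithelial cells of each library were ranked by Malat1 share within 10 bins of other UMIs per cell and split at the middle of each bin, giving 770 to 1480 cells a side, and Malat1 was taken out of the sums. Neat1 rose in Malat1-high cells: 229 against 100.9 CPM and 147 against 92.7 in the WT libraries, and 352 against 194 and 834 against 393 in the OVX libraries. The change was 0.99 ± 0.09 on the log2 scale (SE; edgeR adjusted p = 3.337e-09), and Neat1 was higher in 4 of 4 libraries. Kcnq1ot1 rose as well, with 55.7 against 16.3, 55.7 against 25.01, 126 against 86.5 and 155 against 78.5 CPM. Its change was 1.16 ± 0.15 (SE; edgeR adjusted p = 1.445e-05), again in 4 of 4 libraries.

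Of 10187 genes tested in this split 0.589% were higher in Malat1-high cells at the threshold, 60 genes, and 0.363% were lower, 37 genes; with total UMIs in place of TMM scaling 82.1% of calls were higher in place of 61.9%. The call count rested on the libraries used, with 15 calls without WT library 2 and 52 without OVX library 2. Mitochondrial UMIs stood at 4.54%, 4.33%, 9.96% and 10.5% in Malat1-high cells against 3.85%, 3.72%, 9.07% and 9.60% in Malat1-low cells. In cells matched on mitochondrial share too, a split chosen after the data were seen, Neat1 was 1.66-fold to 2.28-fold and Kcnq1ot1 1.21-fold to 3.16-fold higher. The share of luminal-gate cells was also higher on the Malat1-high side in OVX, at 8.83% and 12.04% against 5.07% and 7.42%. Among basal-gate cells alone, Neat1 was 248, 151, 441 and 827 CPM in Malat1-high cells against 114, 110, 219 and 423 in Malat1-low cells.

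The other genes that rose with Malat1 included further nuclear RNAs. Xist, which coats the inactive X chromosome, was higher by 0.97 ± 0.11 on the log2 scale (SE; edgeR adjusted p = 3.727e-07), and stood at 160, 176, 452 and 452 CPM in Malat1-high cells of WT 1, WT 2, OVX 1 and OVX 2 against 60.7, 89.6, 351 and 210 in Malat1-low cells. Tsix, the antisense partner of Xist, had 1.33 ± 0.19 (edgeR adjusted p = 3.517e-05). Without knowing the strand rule of the counts, Xist and Tsix reads cannot be told apart. Of 28 other long noncoding RNAs tested, 3 rose and 0 fell; the third was Gm42418, at 0.34 ± 0.06. The median log2 fold change of that list was -0.012, against -0.012 over all genes. Gm37376, described below, stood at 28.0, 56.8, 376 and 255 CPM in Malat1-high cells against 9.70, 13.6, 189 and 151.

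Nuclear speckle and splicing protein genes had 3 of 32 higher and 0 lower, with 26 of 32 above 0 and a median of 0.131. Pnisr (0.52 ± 0.08), Srrm2 (0.37 ± 0.07), a large scaffold protein of speckles, and the splicing kinase gene Prpf4b (0.34 ± 0.08) were the 3. Paraspeckle protein genes had 0 of 25 called by edgeR in either direction, 2 at an unadjusted p under 0.05 and 0 by DESeq2, with a median of -0.033. Cytosolic ribosomal protein genes had 4 of 86 lower and 0 higher, with 2 of 86 above 0 and a median of -0.188. Rplp0, a stalk protein of the ribosome, was the largest fall of these at -0.28 ± 0.06. Mitochondrially encoded genes, whose relation to Malat1 was part of the choice, are given as a description only. Their median was 0.06, with 15 of 20 above 0. DESeq2 called 1 of the 86 ribosomal protein genes, 2 of the 32 speckle genes and 2 of the 28 other long noncoding RNAs. The counts by edgeR, at an unadjusted p under 0.05 and by DESeq2 were 0, 2 and 0 for 13 neighbours of Malat1 and Neat1, 0, 1 and 0 for 8 genes of the Kcnq1 domain, 0, 3 and 0 for 19 factors that cut, cap or bind the members, and 0, 3 and 0 for 17 immediate early and dissociation genes.

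The 8 largest rises past the threshold with 1 sign in every library were Gm20417, Ccdc129, Tsix, Plcb4, Clmn, Trerf1, Kcnq1ot1 and Gm24049, with log2 fold changes of 1.69 to 1.12. The 8 largest falls were Gm6166, Sprr1a, Fdft1, Fabp5, Hist1h2bc, Crabp2, Calml3 and Sfn, from -0.88 to -0.39. Sprr1a, a cornified envelope precursor, stood at 334, 331, 52.6 and 54.8 CPM in Malat1-high cells against 536, 573, 99.6 and 96.3 in Malat1-low cells. Fabp5 is a fatty acid binding protein of keratinocytes, and Fdft1 makes squalene in cholesterol synthesis. The basal gate made up more of the Malat1-high side, at 71.8%, 65.0%, 47.0% and 59.7% against 66.5%, 57.4%, 44.7% and 58.9%; the part of layer in these falls was not tested.

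**Figure D4:**
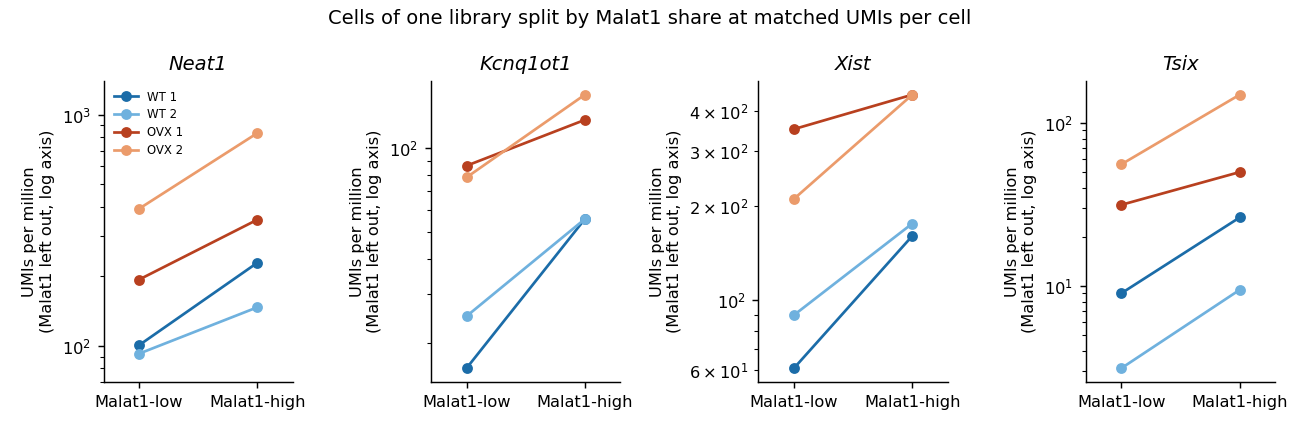
CPM without Malat1 (log axis) of Neat1, Kcnq1ot1, Xist and Tsix in Malat1-low and Malat1-high epithelial cells at matched UMIs per cell, one line per library. Every line rises, from 100.9 to 229 for Neat1 in WT library 1 and from 393 to 834 in OVX library 2.

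Gm37376, a transcript of 453 bases on the plus strand at chr19:5801941-5802393, inside the Malat1 gene, was the gene second most like Malat1 over the 10 sums of a library and a layer with at least 50 cells (Pearson r = 0.995 among 3614 genes, a description over sums that share libraries). It was counted at 0.562 and 0.746 UMIs per 100 Malat1 UMIs in WT and at 1.11 and 1.12 in OVX. Reads of the 2 genes cannot be told apart without the strand rule. First was Upf2, a factor of nonsense-mediated decay, at r = 0.996, with 59.8 to 76.2 CPM over WT sums and 161 to 228 over OVX sums, followed by Nr2f2, Arhgap5 and Zfp36l1. Most like Neat1 were Jtb, Fnbp4, Mdm4, mt-Tp and Rps24 (r = 0.984 to 0.957), and most like Kcnq1ot1 Fam107b, Tmem176a, Pik3ip1, Vps13a and Ddah2 (0.951 to 0.925). Between members r was 0.899 for Malat1 and Kcnq1ot1, 0.673 for Malat1 and Neat1 and 0.605 for Neat1 and Kcnq1ot1.

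Neat1 was lower in dividing cells. Epithelial cells with at least 5 UMIs of 28 G2 and mitosis genes numbered 996 and 487 in WT and 13 and 45 in OVX. Neat1 stood at 111 and 89.7 CPM in cycling WT cells against 202 and 133 in other cells, and at 251 and 233 in cycling OVX cells against 266 and 615. The level was lower in 4 of 4 libraries, by little in OVX library 1, where cycling cells held 3 Neat1 UMIs. The log2 fold change of Neat1 was -0.96 ± 0.17 (SE; edgeR adjusted p = 5.621e-07), among 4.44% of 10725 genes that were lower in cycling cells. It passed under each of 9 alternatives, with -1.18 to -0.84 and adjusted p from 1.192e-09 to 0.0256. Cycling cells were deeper, at a median of 2027 and 1024 UMIs in WT and 871 and 1037 in OVX against 1438, 745, 432 and 735. In cells matched on UMIs, Neat1 stood at 110, 88.9, 251 and 233 against 177, 139, 334 and 720. Among basal-gate cells alone it was lower in 3 of 4 libraries; OVX library 1 had 6 cycling cells there with 3 Neat1 UMIs, 529 against 318 CPM. The number of genes called, 1190 in either direction, dropped to 289 when WT library 1 was left out, to 431 when WT library 2 was, and to 382 by DESeq2.

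Malat1 went different ways in the groups. Cycling WT cells held slightly more than other WT cells, 3490 against 3246 and 4902 against 4524 CPM, while cycling OVX cells held less, 13630 against 25030 and 11590 against 18120. The difference between groups, tested as an interaction added after the data were seen, was -1.29 ± 0.10 on the log2 scale (SE; edgeR adjusted p = 1.554e-37). In that test 0.839% of genes were called. The model leaves 2 residual degrees of freedom per gene, so its p leans on the spread shared across genes. In cells matched on UMIs the difference was -0.86 ± 0.11 and with total UMIs -0.82 ± 0.07. Matched cycling cells held 13630 against 34020 CPM in OVX library 1 and 11590 against 17110 in OVX library 2. The log2 ratios were -1.32 and -0.56 there, against 0.17 and 0.21 in WT. The OVX libraries lay further apart than the SE of 0.11, so that SE does not measure the spread between them. Over all 4 libraries Malat1 had a log2 fold change of -0.61 ± 0.15 (edgeR adjusted p = 0.000786). It did not pass without OVX library 1 (-0.29, adjusted p = 0.108), without OVX library 2 (-0.45, adjusted p = 0.149) or with DESeq2 (adjusted p = 0.53), and was -0.26 with total UMIs. OVX library 1 gave 163 Malat1 UMIs from cycling cells. Among basal-gate cells alone, cycling against other cells held 3536 against 3446 and 4862 against 4987 in WT, and 10590 against 25210 and 11350 against 17670 in OVX.

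Kcnq1ot1 had a log2 fold change of 0.01 ± 0.21 in the cycling comparison (edgeR adjusted p = 0.985), from 84, 27, 0 and 12 UMIs in cycling cells. Of the proteins that cut, cap or bind the members, 6 of 19 rose and 1 fell in cycling cells. Over all 10725 genes tested, 6.66% were higher and 4.44% lower in these cells. Ezh2, the enzyme of Polycomb complex 2, rose by 1.29 ± 0.16, and Dnmt1, the maintenance DNA methyltransferase, by 1.24 ± 0.16. Paraspeckle protein genes had 1 of 26 higher, Taf15 at 0.49 ± 0.17, and speckle and splicing genes 3 of 32, the splicing factors Srsf3, Srsf7 and Srsf1 at 0.58, 0.55 and 0.51; these shares lie near that of all genes. Of other long noncoding RNAs, 1 of 27 rose, the imprinted H19 at 1.3 ± 0.31, and 3 fell, Gas5, Snhg4 and Epb41l4aos, at -0.62, -0.61 and -0.58. The H19 rise rests mostly on WT library 1, at 35.7 against 12.7 CPM. In WT library 2 it was 5.08 against 4.505, and in both OVX libraries 0 against 0. H19 was also the 1 of 8 called genes of the Kcnq1 imprinted domain list, and Pola2, a subunit of the DNA polymerase that primes replication, the 1 of 15 called neighbours of Malat1 and Neat1. Cytosolic ribosomal protein genes had 11 of 86 lower and 0 higher, with a median of -0.326 against -0.071 over all genes. Of 17 immediate early genes 4 fell and Hsp90aa1 rose. Jund, at -0.74, was lower in the cycling cells of each library. Fos, at -1.1, was lower in WT library 1 and OVX library 2 but higher in WT library 2 and OVX library 1. Of 19 mitochondrially encoded genes 3 fell. DESeq2 called fewer of these: 2 of the 19 factors, 1 of the other long noncoding RNAs and 0 of the paraspeckle, speckle and ribosomal lists. The leading genes were those of mitosis, such as Kif2c, Nuf2 and Aspm, as the choice of cells implies.

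**Figure D5:**
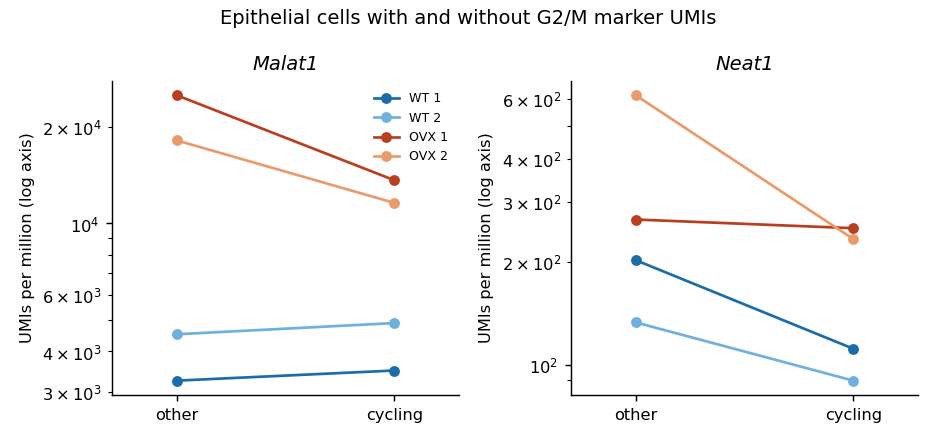
CPM (log axis) of Malat1 and Neat1 in epithelial cells without and with at least 5 UMIs of G2 and mitosis genes, one line per library. Neat1 lines fall in 4 of 4 libraries; Malat1 lines rise slightly in WT, from 3246 to 3490 and from 4524 to 4902, and fall in OVX.

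Between OVX and WT, the list genes around the members mostly did not pass the test. Of 26 paraspeckle protein genes 1, Zc3h6, rose, from 11.7 and 6.74 to 50.1 and 88.0 CPM (log2 fold change 2.74 ± 0.51, edgeR adjusted p = 0.0245), and 0 fell, where 2.58% of all genes tested rose and 2.52% fell, so that 1 of 26 is near the background. The list's median was -0.255 against -0.031 over all genes. Of 32 speckle and splicing genes edgeR called 0, with 3 at an unadjusted p under 0.05 and 1 called by DESeq2, and the median was 0.462. Of 30 other long noncoding RNAs edgeR called 0, with 9 at an unadjusted p under 0.05 and 2 by DESeq2; 21 of 30 were above 0 and the median was 0.549. Xist stood at 111 and 135 CPM in WT and 383 and 325 in OVX, and Gas5 at 1439 and 1495 against 2284 and 2395.

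Genes near the members had medians below 0. Of 14 tested neighbours of Malat1 and Neat1 on chromosome 19, edgeR called 0, with 2 at an unadjusted p under 0.05 and 0 by DESeq2, and the median was -0.471. Of 7 tested genes of the Kcnq1 imprinted domain it called 0, with 1 and 0, at a median of -0.311. Of 19 factors that cut, cap or bind the members it called 0, with 2 and 0, at a median of -0.196. Among 19 mitochondrially encoded genes 3 transfer RNA genes rose, mt-Tv, mt-Ta and mt-Tq, and the median was 0.996. Of 17 immediate early and dissociation genes 1 fell, the chaperone gene Dnajb1, at -1.75 ± 0.40, against 2.52% of all genes that fell. Of 87 ribosomal protein genes edgeR called 0, with 3 and 0, and the median was 0.126.

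Myeloid-marker cells, 12 from WT library 1 and 14 and 21 from the OVX libraries, held Malat1 at 5808, 22870 and 23630 CPM against 3348, 24850 and 17890 in epithelial cells of the same libraries. Those of WT library 1 also held the epithelial keratins Krt5 at 6216 and Krt14 at 9425 CPM. In the OVX libraries Krt5 stood at 775 and 175 and Krt14 at 258.5 and 700. Doublets were not removed, and the part of epithelial RNA in these cells was not tested. In this comparison 0 of 3 members passed edgeR, 1 had an unadjusted p under 0.05 and 0 passed DESeq2, while 5.52% of 6979 genes were called, 41.3% of them higher, or 80.8% with total UMIs. Malat1 had a log2 fold change of -0.39 ± 0.41 (edgeR adjusted p = 0.62), which turned to 0.36 with total UMIs. Neat1 had -1.37 ± 0.62 (0.196) and Kcnq1ot1 0.06 ± 0.80 (0.978), against a median of -0.913 over all genes, or -0.23 with total UMIs. The myeloid-marker cells held 2 to 4 Neat1 UMIs and 0 to 4 Kcnq1ot1 UMIs per library. WT library 2, with 8 such cells, was not used.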

How the data were processed

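The authors deposited 1 gene-by-barcode matrix of UMI counts per library, as raw whole-number counts with no normalization, 3000 or 2000 barcodes each. Seurat 2 and the build mm10 are named per the submitters' processing notes; the aligner, annotation, strand rule and barcode selection were not given in the sources used here. Members and gene lists were chosen with earlier results of these data known, and so was the gate rule, for which the marker panels were written down first.

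Barcodes under 200 genes or above 20% mitochondrial UMIs were dropped. A cell went to the layer whose panel stood most above its library's mean, on at least 3 UMIs (luminal needing Krt8 or Krt18); 5 UMIs of another panel made it myeloid or other non-epithelial. Levels are CPM (UMIs per 1000000) with exact 95% Poisson intervals, which cover counting error only. Counts were summed per library, or per library and cell set with the library as a block, filtered with filterByExpr, TMM scaled and tested by edgeR's quasi-likelihood test (R 4.3.3, edgeR 4.0.16) with Benjamini-Hochberg adjustment over all genes at 0.05; DESeq2 1.42.0 was an alternative. Further tools were Python 3.11.15, numpy 2.4.6, scipy 1.17.1, pandas 2.3.3 and matplotlib 3.10.9. The fits were also run on simulated counts with large changes, a common spread for all genes and no library differences but depth. That setting is unlike these libraries, so the run does not bear on the calls reported here.

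Genes named beside the members were up to 3 per direction of each of 9 lists past the threshold, the 8 largest and 8 smallest changes of 1 sign in every library in the cell splits, and the 5 most like each member (Pearson r of log2 of CPM plus 10). Deviations of same-numbered libraries from their group means correlated at -0.568 in all cells and -0.495 in basal-gate cells, so the numbers were not taken to pair libraries. Alternatives covered the filters, scaling, tool, gate, depth, mitochondrial share and each library left out.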

Additional observations from a re-analysis of the deposited data

Results flagged for a closer look

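The Malat1 difference between cycling and other epithelial cells itself differed between OVX and WT, by -1.29 on the log2 scale (SE 0.10, edgeR adjusted p = 1.554e-37, an interaction test added after the data were seen, with 2 residual degrees of freedom per gene). It rests on 13 and 45 cycling OVX cells, and was -0.86 in cells matched on UMIs and -0.82 with total UMIs. In matched cells the OVX libraries lay apart, with log2 ratios of cycling to other cells of -1.32 and -0.56.

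Malat1 was also high in barcodes left out of the kept cells, which in the fits only the alternative with every barcode used. Those with at least 200 genes and over 20% mitochondrial UMIs held 62180 and 59150 UMIs per 1000000 in OVX (24 and 66 barcodes), a mean of 60660, against 14910 and 12640 in WT (20 and 9 barcodes). Barcodes with a UMI but under 200 genes held 34790 in OVX library 1 (1398 barcodes). Their mean over the OVX libraries was 80500 ± 64640 (SD, n = 2). In WT they were 1 and 4 barcodes, with 0 and 17 Malat1 UMIs.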

How the results depend on the processing

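Of 161 alternative values, 116 kept their direction and side of the threshold (or stayed within 1.5 times or 1 SD), 32 moved, 4 fell short of the threshold and 9 turned in sign; the cause was not tested. The 587 genes called between OVX and WT were 1356 without a filter on low counts and 308 to 1884 when a library was left out, the lone library then being assumed to vary like the other group. In basal-gate cells the 357 calls became 784 without the filter, 206 with the stricter gate and 125 to 1312 with a library left out. With the replicate number as a replicate block the counts were 517 and 334. A crossed pairing, added after seeing the data, gave 3489 and 2333. It joined WT library 1 with OVX library 2 and WT library 2 with OVX library 1.

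The 1190 calls of the cycling comparison were 382 by DESeq2, 625 in basal-gate cells and 289 to 1314 with a library left out. The 97 calls of the Malat1 split were 24 by DESeq2, 32 in basal-gate cells, 147 without the filter, 186 between the outer of 4 equal groups by Malat1 share and 15 to 126 with a library left out. The 385 calls of the myeloid comparison were 223 by DESeq2 and 167 to 202 with a library left out. Neat1 kept its call in the cycling comparison and the Malat1 split under every alternative run; Kcnq1ot1 did so in the split, save that DESeq2 gave it no adjusted p.

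Malat1 in cycling cells missed the threshold with DESeq2 (-0.59) and in basal-gate cells (-0.81), and ran from -0.89 to -0.29 with a library left out. Kcnq1ot1 there, at 0.01, turned to -0.17 in cells matched on UMIs, -0.06 without the filter, and ran from -0.09 to 0.14 (-0.05 without WT library 2). In myeloid-marker cells Malat1, at -0.39, turned to 0.03 with DESeq2 and 0.36 without TMM. Kcnq1ot1 there, at 0.06, turned to -0.02 without the filter, and ran from -0.40 to 0.57 with a library left out (-0.10 without WT library 1). None of these turned values passed the threshold.

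The log2 ratio of OVX to WT over 11 alternatives ran from 1.98 to 2.68 for Malat1 and 0.90 to 2.07 for Neat1. For Kcnq1ot1, at 1.53, it was 1.91 with every barcode, 1.22 at no more than 10% mitochondrial share, 1.17 with at least 500 genes, 1.29 thinned and 0.55 in the window. Kcnq1ot1 levels rest on 78 to 210 UMIs per library.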
